A study of Homo sapiens with 40 samples.

Results

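Exon inclusion and intron retention were compared directly between human cells whose transcription was carried by the slow RNA polymerase II mutant R749H and cells carrying the fast mutant E1126G. An exon entered the comparison when the authors' deposited RNA-seq tables for R749H against wild type (WT) and for E1126G against WT both listed it with the same position, strand and name. This held for 13284 exon events, of 14358 listed for R749H and 14650 listed for E1126G. For retained introns the same match gave 2521 events, of 2605 and 2615. In each event the level in a mutant was computed from the deposited WT ratio (reads that include the exon over reads that skip it) and the mutant's fold change, and WT then cancels when the mutants are set against each other. Whether these ratios allow for the number of junctions on each side is not stated, so percentages and differences in percentage points below are nominal, while a constant factor cancels in the log2 difference between mutants.

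All groups were HEK293 Flp-in T-REx cells, a human embryonic kidney line with a single inducible integration site, that carried an α-amanitin-resistant (Amr) Rpb1, the largest polymerase subunit, from a pcDNA5 vector. The WT, R749H and E1126G forms were each switched on by doxycycline over 12 to 16 h, after which the cells stayed in α-amanitin for 42 h, which blocks the endogenous polymerase that the host still makes. WT cells received the same drugs. RNA-seq had 2 libraries of poly(A)+ RNA per genotype, described in the labels as biological replicate samples, and RASL-seq, which counts pairs of probes ligated on chosen exon junctions, had 3 per genotype. No source used here says whether a genotype is 1 clone or several. The tables hold splicing ratios and no value per library, so the depth, the transgene's level and cell markers could not be checked.

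RNA polymerase II and the spliceosome work on the same transcript at the same time. The longer the polymerase takes to reach a downstream splice site, the longer an upstream, weaker site has no competitor, and a slow polymerase is therefore known to favour inclusion of some exons. It also gives inhibitory proteins more time to bind, and other exons are known to be skipped for that reason. A faster polymerase is often described as the opposite case.

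Each difference below is the log2 of the R749H ratio over the E1126G ratio, so a positive value means more inclusion (or retention) with the slow polymerase. The ± after it is the standard error implied by the deposited changes and p-values of both mutants. An event was called when the approximate z test on this difference gave an adjusted p under 0.05 (Benjamini-Hochberg over all tested exons, or over all tested introns). The WT libraries' noise is counted in both errors, although it cancels in the difference.

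Of the 13247 exons that could be tested, 230 were called, or 1.74%. Inclusion was higher in R749H than in E1126G at 156 of them (1.18% of those tested) and lower at 74 (0.559%). The called events came from 175 of 5963 genes and covered 222 distinct exons. Most exons sat close together in both mutants: the median difference was 0.07 (quartiles -0.73 and 0.89), and the median gap, whatever its sign, was 2.49 percentage points of inclusion. The median error of a difference was 1.11, and the smallest difference called was 1.09 in size. At an unadjusted p under 0.05 there were 1460 exons. Among the 1066 exons that differed by at least 20 points, 560 were higher and 506 lower in R749H, and 130 of these passed the test.

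**Figure D1:**
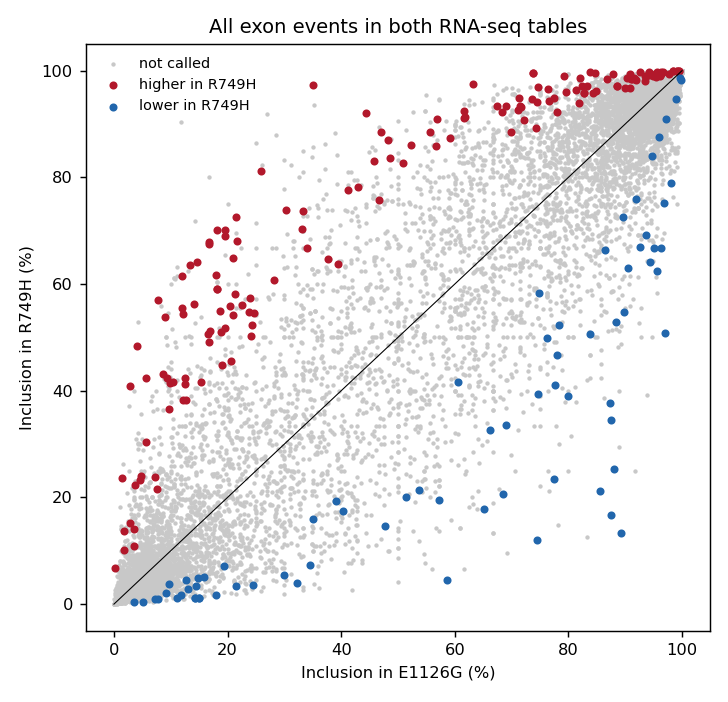
Inclusion in R749H cells (y axis, %) against inclusion in E1126G cells (x axis, %) for each exon event in both RNA-seq tables. Red points are the 156 events called higher in R749H, blue points the 74 called lower, grey points all others, and the line marks equal inclusion.

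Among the 180 called exons that also differed by at least 10 percentage points, those with the largest gains in R749H over E1126G lay in genes of very different function. The largest values belonged to overlapping forms of 1 exon in a duplicated stretch of chromosome 16 (GRCh37 chr16:16412371-16412591 and chr16:16412408-16412591, + strand), listed for PKD1P1, a pseudogene of the polycystin gene PKD1, and for NPIPA9, of the nuclear pore interacting protein family. The 221-nt form had 87.4% inclusion in WT, 99.8% in R749H and 83.7% in E1126G (6.74 ± 1.08, adjusted p = 1.22e-06). The 184-nt form had 78.4%, 99.6% and 73.8% (6.59 ± 1.14). Near-identical copies of this region exist, and reads may be divided among them, so these values are uncertain.

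Grouped by hand, several of the named exons lay in genes for mitochondrial or chromatin proteins. A 76-nt exon of SLC25A35, a mitochondrial carrier family member (chr17:8193921-8193996, - strand), stood at 57.9% in WT, 97.4% in R749H and 35.0% in E1126G (6.10 ± 1.71, adjusted p = 0.027). A 200-nt exon of MTFR1L, related to a regulator of mitochondrial fission (chr1:26149731-26149930, + strand), was at 12.3%, 40.9% and 2.78% (4.60 ± 1.14). In both genes the WT level lay between those of the mutants. E1126G did not pass against WT by the deposited p-values after Benjamini-Hochberg (adjusted p = 0.589 for SLC25A35 and 0.164 for MTFR1L). A 120-nt exon of ATAD3B, a mitochondrial ATPase (chr1:1425072-1425191, + strand), rose to 57.0% in R749H, while WT was at 7.95% and E1126G at 7.75% (3.98 ± 0.90). A 153-nt exon of ASXL1, a partner of the histone H2A deubiquitinase BAP1 (chr20:31017704-31017856, + strand), was included at 98.9% in R749H against 77.6% in WT and 79.1% in E1126G (4.61 ± 1.12). A 105-nt exon of L3MBTL2, a Polycomb-group protein (chr22:41623579-41623683, + strand), was at 6.85% in WT, 48.3% in R749H and 4.0% in E1126G (4.49 ± 1.04). At the ATAD3B, ASXL1 and L3MBTL2 exons E1126G stayed within 3 points of WT and R749H stood apart.

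The other named gains were spread over DNA repair, nuclear transport and metabolism. FANCG, a subunit of the Fanconi anaemia core complex, had a 203-nt exon (chr9:35078138-35078340, - strand) at 89.9% in WT, 99.5% in R749H and 84.6% in E1126G (5.21 ± 1.23, adjusted p = 0.00459). NUP88, a nucleoporin, had a 174-nt exon (chr17:5291099-5291272, - strand) at 83.1%, 99.4% and 87.9% (4.60 ± 0.99). Of the 3 genotypes, R749H was the closest to complete inclusion at both exons. A 150-nt exon of PDCD6, a calcium-binding protein (chr5:313816-313965, + strand), was nearly unused in WT (1.16%) and E1126G (1.37%) and reached 23.7% in R749H (4.48 ± 0.94). An 86-nt exon of AFMID, an enzyme of tryptophan breakdown (chr17:76200737-76200822, + strand), was at 42.6% in WT, 97.4% in R749H and 63.2% in E1126G (4.47 ± 1.18), so both mutants lay above WT. In LSM14B, an RNA-binding protein of the Lsm14 family, the fast mutant stood apart at its 168-nt exon. This exon (chr20:60704841-60705008, + strand) was at 95.7% in WT and 98.7% in R749H and at 82.1% in E1126G (4.0 ± 0.99, adjusted p = 0.00683). In WT this exon was already nearly complete, and most of the gap in points came from the fast mutant. A 117-nt exon of the same gene (chr20:60702641-60702757, + strand) was called in the other direction, at 73.6%, 19.5% and 57.1% (-2.46 ± 0.64, adjusted p = 0.0118), and there R749H stood apart.

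Median WT inclusion over all matched exons was 90%, so a high WT level was common. Of the 12 named exons that were lower in R749H than in E1126G, 10 were included at more than 70% in WT. The clearest by its p-value was a 69-nt exon of ST7, a gene first described as a candidate tumour suppressor (chr7:116774178-116774246, + strand). It was at 74.1% in WT, 4.46% in R749H and 58.6% in E1126G (-4.92 ± 0.69, adjusted p = 3.36e-09). A 192-nt exon of EFCAB14, an EF-hand protein (chr1:47154025-47154216, - strand), was at 88.2% in WT, 25.4% in R749H and 88.1% in E1126G (-4.44 ± 0.85, adjusted p = 8.71e-05). A 128-nt exon of RNF146, a ubiquitin ligase that recognises poly(ADP-ribose) (chr6:127607195-127607322, + strand), was at 87.3%, 12.0% and 74.5% (-4.42 ± 1.09). At these 3 exons inclusion in R749H was at least 54 points below that in E1126G. A 158-nt exon of DIS3, the catalytic nuclease of the RNA exosome (chr13:73354984-73355141, - strand), was at 91.5%, 34.5% and 87.4% (-3.72 ± 0.88). R749H was also the lowest at exons of CENPK, a kinetochore subunit (102 nt, 97.4%, 62.4% and 95.5%), MAIP1, a mitochondrial protein that interacts with the matrix AAA protease (148 nt, 95.5%, 66.7% and 96.2%), and TMCO3, a membrane protein (93 nt, 97.8%, 79.0% and 98.1%). All 3 were almost constitutive in WT and in the fast mutant.

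At other lower exons the value in the fast mutant was above that in WT and the value in the slow mutant below it. A 267-nt exon of FGFR2, a receptor tyrosine kinase (chr10:123324952-123325218, - strand), was at 82.1% in WT, 50.8% in R749H and 97.0% in E1126G (-4.95 ± 1.22, adjusted p = 0.00716). An 80-nt exon of GAD1, which makes the transmitter GABA from glutamate (chr2:171699079-171699158, + strand), was at 72.9%, 21.1% and 85.6% (-4.47 ± 1.01). A 153-nt exon of the long non-coding RNA LINC01128 (chr1:783034-783186, + strand) was at 73.7%, 13.3% and 89.3% (-5.76 ± 1.41). The exon of ZNF138, a zinc finger gene (137 nt, chr7:64291318-64291454, + strand), stood at 50.9%, 16.7% and 87.5%, and with a large error it only just passed (-5.13 ± 1.54, adjusted p = 0.0483). In these 4 genes WT lay between the mutants, but the call itself did not use the mutants' order around WT. Against WT, E1126G passed at none of them by the deposited p-values after Benjamini-Hochberg. Its adjusted p was 0.0758 for FGFR2, 0.467 for GAD1, 0.507 for LINC01128 and 0.107 for ZNF138. At ZNF138 R749H did not pass either (adjusted p = 0.14). The shortest of the named exons, 14 nt in WARS1, the tryptophanyl-tRNA synthetase (chr14:100840473-100840486, - strand), was at 21.5% in WT, 1.16% in R749H and 14.9% in E1126G (-3.91 ± 0.98).

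**Figure D2:**
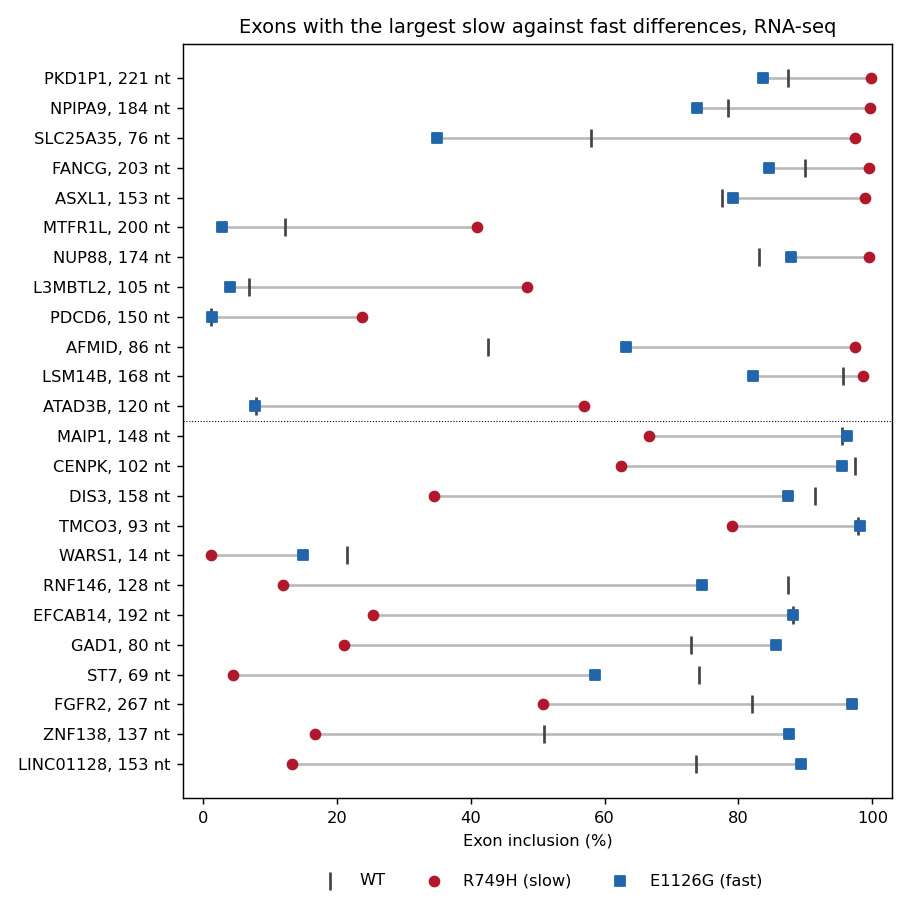
Inclusion (x axis, %) of the 12 exons with the largest gains and the 12 with the largest losses in R749H against E1126G, 1 per line with gene and exon length, for WT (grey tick), R749H (red circle) and E1126G (blue square). Above the dotted line red lies to the right of blue, and WT often lies nearer to blue; the tables give no spread between libraries, so no error bars are drawn.

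The called exons, mainly those higher in R749H, differed from the rest in the distance between their flanking exons. The test did not use this property, but the errors it rests on were larger at long distances. The median error was 1.07 at distances of at most 1000 nt and 1.31 beyond 32000 nt. This distance, the sum of both introns and the exon, had a median of 1829 nt for exons higher in R749H, 5966 nt for exons lower in R749H and 5056 nt over all matched exons. It was 2000 nt or less at 88 of the 156 higher exons (56.4%), 10 of the 74 lower exons (13.5%) and 24.2% of all exons. Both introns were short around the higher exons: the median upstream intron was 631 nt and the median downstream intron 589.5 nt, against 1905.5 and 1849.5 nt over all exons. Around the lower exons they were 1622.5 and 2104 nt. These are counts over exons of the same libraries, given with no test, since exons are not replicates of a genotype.

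The same order appeared over all matched exons, called or not. The median difference was 0.48 for the 1498 exons with at most 1000 nt between their neighbours, 0.27 for the 1717 exons of 1000 to 2000 nt and 0.08 for those of 2000 to 4000 nt. Beyond that distance it lay between -0.07 and 0.02. Calls were 44 higher and 2 lower in the shortest group, 44 and 8 at 1000 to 2000 nt, 36 and 21 at 2000 to 4000 nt, 24 and 22 at 4000 to 8000 nt, and 5 and 17 at 8000 to 16000 nt. At longer distances they were 3 and 2 up to 32000 nt and 0 and 2 beyond. As shares of the exons tested, from the shortest group up, calls were 3.07% of 1497, 3.04% of 1713, 2.32% of 2453 and 1.54% of 2995. Beyond 8000 nt the shares were 0.94% of 2352, 0.38% of 1321 and 0.22% of 916. Each group's quartiles spanned 0, from -0.24 to 1.34 in the shortest group, so distance was far from fixing the direction of a single exon. With only exons of 5% to 95% WT inclusion the 2 shortest groups had medians of 0.68 and 0.38, and with only exons of 51 to 150 nt 0.46 and 0.26. With 1 exon per gene the values were 0.51 and 0.19. Against WT, whose libraries both mutants share, the shortest group had a median of 0.43 for R749H and -0.05 for E1126G, and at 8000 to 16000 nt these were -0.20 and -0.12.

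**Figure D3:**
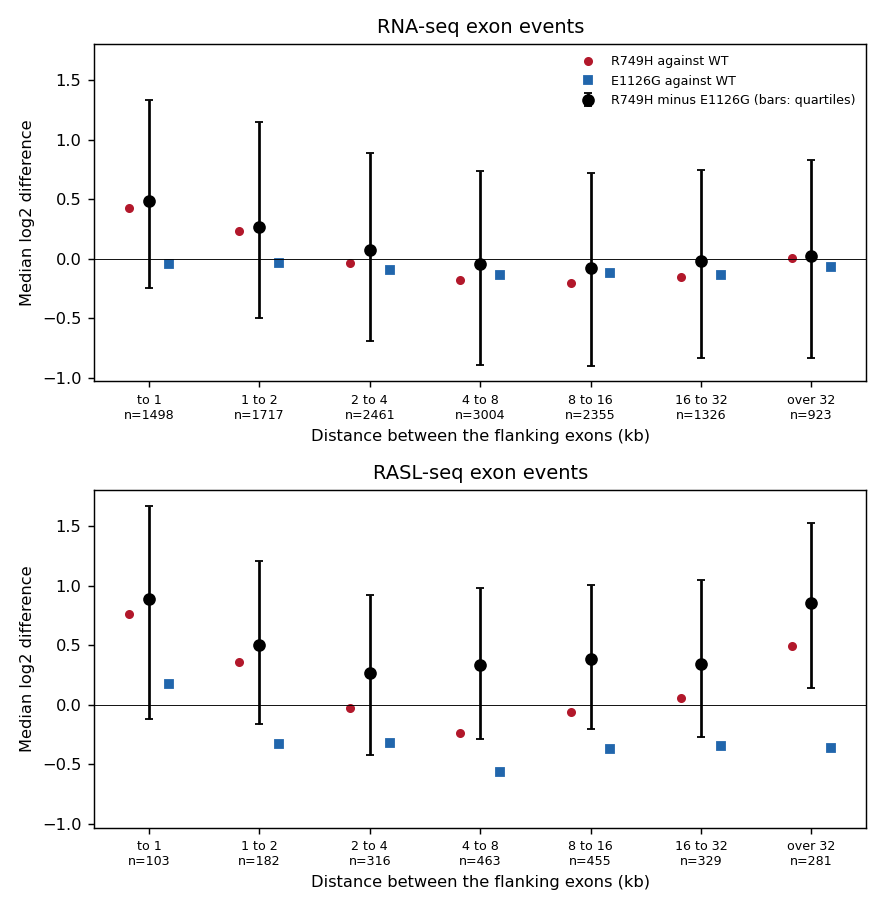
Median log2 difference (y axis) by the distance between the flanking exons (x axis, kb) in the RNA-seq tables (top) and the RASL-seq tables (bottom). Black points are R749H minus E1126G with bars from the lower to the upper quartile over exons, red circles R749H against WT and blue squares E1126G against WT; in RNA-seq the black points fall from 0.48 to near 0, while in RASL-seq they are also high (0.86) beyond 32 kb.

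Length and reading frame moved less. Exons higher in R749H had a median length of 130 nt, against 109 nt for lower exons and 108 nt for all, and 62 of the 156 (39.7%) were longer than 150 nt, against 11 of 74 (14.9%) and 24.6% of all. Lengths that keep the reading frame (a multiple of 3) made up 44.9% of the higher, 48.6% of the lower and 43.5% of all exons. Median WT inclusion was 58.2% for higher exons and 73.3% for lower exons, below the 90% of all exons. The errors also varied with WT inclusion. At 20% to 50% the median error was 0.97 and 3.69% of exons were called. Above 95% the median error was 1.21 and 0.73% were called.

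Genes for splicing factors held more calls than the background of 1.74%, but not in every list more large differences. By size alone (20 points and a log2 difference of 1), 1066 of all 13284 exons differed. The counts were 11 for SR and related genes (77 tested), 2 for SR kinases (20) and 3 for hnRNPs (85). They were 5 for other splicing regulators (78) and 2 for the core spliceosome (70). A call also depends on the error of an event, which was not compared between lists. Members of the SR family, which bind exons and promote their use, and related proteins had 6 higher and 2 lower exons among 77 tested (10.4%), with a median difference of 0.11 beside 0.07 for all exons. The largest rise in an SR protein gene was at a 456-nt exon of SRSF3 (chr6:36567598-36568053, + strand), with 10.4% inclusion in WT, 83.7% in R749H and 48.5% in E1126G (2.44 ± 0.41, adjusted p = 7.95e-06). Both mutants lay far above WT there. The list's SRSF7 calls (276 and 449 nt) were forms of 1 exon. ACIN1, an SR-related protein of the exon junction complex, had exons in both directions. Its 1358-nt exon (chr14:23536523-23537880, - strand) was at 20.4% in WT, 61.7% in R749H and 17.9% in E1126G (2.88 ± 0.51), and its 62-nt exon (chr14:23540334-23540395, - strand) at 55.8%, 23.5% and 77.5% (-3.48 ± 0.73). LUC7L3, a relative of a yeast U1 snRNP protein, had a 141-nt exon that was near complete in all 3 genotypes (99.2%, 98.2% and 99.8%) and still differed (-3.33 ± 0.92, adjusted p = 0.0234). Its 126-nt exon went the other way, at 7.06%, 11.0% and 3.46% (1.78 ± 0.42). Of the SR kinases, which phosphorylate SR proteins, CLK2 alone had called exons, 2 of the list's 20, and these are variants of the same exon. Its 88-nt form (chr1:155238499-155238586, - strand) was at 62.4% in WT, 96.0% in R749H and 79.6% in E1126G (2.63 ± 0.67, adjusted p = 0.0101).

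The hnRNPs, RNA-binding proteins that often repress exons, had 3 higher and 5 lower exons among 85 tested (9.41%), with a median of 0.01 that turned to -0.06 once the median of all exons was subtracted. The lower calls in HNRNPC (272 and 26 nt) were forms of 1 exon, as were those in HNRNPH1 (139 and 92 nt), so fewer than 5 distinct exons were lower. HNRNPH1 held 4 of the list's calls. Its 134-nt exon (chr5:179048844-179048977, - strand) was at 1.48% in WT, 22.4% in R749H and 3.63% in E1126G (2.94 ± 0.61), and a 50-nt exon (chr5:179042547-179042596, - strand) at 95.4%, 98.9% and 95% (2.27 ± 0.48). Its 139-nt exon (chr5:179046270-179046408, - strand) went the other way, at 91.7%, 66.4% and 86.4% (-1.68 ± 0.45). HNRNPM had a 53-nt exon (chr19:8527413-8527465, + strand) at 98.1%, 84.1% and 94.7% (-1.76 ± 0.48). The remaining splicing regulators had 4 higher and no lower exons among 78 (5.13%), with a median of -0.12, so the median and the calls differ in sign. They included exons of TIAL1, which binds U-rich sites (376 nt, 38.6%, 55.9% and 20.4%), RBM4 (691 nt, 82.9%, 97.1% and 88.6%) and RBM25 (122 nt, 8.24%, 13.7% and 1.80%). The TIAL1 calls (376 and 68 nt) were forms of 1 exon. In the core spliceosome 2 exons were higher and 1 lower of 70 (4.29%, median -0.13): those of DDX46, a helicase of the U2 snRNP (117 nt, 18.7%, 54.7% and 23.9%), PRPF38B (53 nt, 20.0%, 14.1% and 3.59%) and TXNL4A, a small U5 snRNP protein (70 nt, 4.49%, 2.15% and 9.12%).

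Genes for polymerase II elongation and termination had 9 higher and no lower exons among 99 tested (9.09%), with a median of 0.20. The calls came from only 4 genes, and several are alternative forms of 1 exon. CCNL1 and CCNL2, cyclins that partner splicing-linked CDK11 kinases, held 6 of them. The 148-nt exon of CCNL1 (chr3:156874725-156874872, - strand) was at 62.4% in WT, 88.5% in R749H and 55.7% in E1126G (2.62 ± 0.52, adjusted p = 0.000273), and the 98-nt exon of CCNL2 (chr1:1324330-1324427, - strand) at 2.70%, 23.2% and 4.58% (2.66 ± 0.50). A 61-nt exon of TCEA1, the elongation factor TFIIS that rescues stalled polymerase (chr8:54934086-54934146, - strand), was at 2.98%, 10.1% and 1.69% (2.71 ± 0.77). The others were forms of 1 exon in CCNC, the cyclin of the Mediator kinase. Genes of 3′ end formation and RNA surveillance had 1 higher and 2 lower exons of 75 (4.0%, median -0.24). They were a 51-nt exon of EXOSC9, an exosome subunit (8.78%, 41.7% and 15.4%), the DIS3 exon above and a 45-nt exon of FIP1L1, a polyadenylation factor (61.1%, 20.1% and 51.4%).

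In the lists outside RNA processing between 1.29% and 4.63% of the exons were called. Chromatin regulators had 3 higher and 1 lower exons of 165 (2.42%, median 0.11). The largest of these by its test was a 99-nt exon of SMARCA4, the BRG1 ATPase of the SWI/SNF complex (chr19:11144443-11144541, + strand), at 13.2% in WT, 43.1% in R749H and 8.56% in E1126G (3.02 ± 0.52, adjusted p = 9.12e-06). The others lay in the acetyltransferase gene KAT7 (90 nt, 83.7%, 98.4% and 86.8%), the deacetylase gene HDAC1 (53 nt, 2.17%, 30.3% and 5.57%) and the remodeller gene CHD1 (264 nt, 29.0%, 14.7% and 47.8%). ASXL1 and L3MBTL2, whose called exons are given above, are not on this list, so its counts leave them out. DNA replication and repair had 3 higher and no lower exons of 131 (2.29%, median -0.03): the FANCG exon, a 151-nt exon of the replicative helicase subunit MCM3 (10.5%, 78.2% and 42.9%) and a 165-nt exon of the DNA polymerase gene POLE (2.36%, 36.5% and 9.76%). Endocytosis and membrane traffic had 4 higher and 1 lower of 108 (4.63%, median 0.04, or -0.03 after the median of all exons was subtracted). PICALM, a clathrin assembly protein, held exons in both directions there. Its 24-nt exon (chr11:85689113-85689136, - strand) was at 75.1% in WT, 51.7% in R749H and 19.5% in E1126G (2.14 ± 0.59), so both mutants lay below WT, and its 150-nt exon (chr11:85701293-85701442, - strand) was at 59.5%, 21.4% and 53.6% (-2.09 ± 0.61). The list's other exons were in the SNARE gene STX16 (163 nt, 72.7%, 95.8% and 82.8%) and in APLP2 (153 nt, 98.3%, 99.9% and 99.1%). The STX16 calls (163 and 152 nt) were forms of 1 exon. The membrane skeleton and cytoskeleton had 2 higher exons of 155 (1.29%, median 0.15): 15 nt in SPTAN1, a spectrin (48.6%, 52.4% and 24.3%), and 63 nt in MPRIP, a myosin phosphatase partner (35.7%, 38.3% and 12.6%). At both of these exons R749H was within 4 points of WT and E1126G lay below. The p53 and apoptosis genes had 1 higher and 1 lower of 86 (2.33%, median 0.17), in BCL2L12 (273 nt, 95.3%, 99.2% and 94.0%) and RNF146.

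RASL-seq measured the same contrast in other libraries. There 720 of 2128 exons tested were called (33.8%), 577 of them higher in R749H (27.1%) and 143 lower (6.72%), and the median difference was 0.44. Of the exons called in RNA-seq, 49 were measured by RASL-seq. The difference was above 0 at 34 of the 36 called higher, while 67.6% of all 1538 exons in both assays were above 0 in RASL-seq. It was below 0 at all 13 called lower. After the median of all RASL-seq exons was subtracted, 30 of 36 and 13 of 13 were on the same side. Some of the 49 are variants of 1 exon, and they have 43 distinct RASL-seq values. The 37 exons called in both assays had the same direction in both, 28 higher and 9 lower. Sizes were smaller in RASL-seq, with medians of 1.43 against 2.40 in RNA-seq for higher exons and -0.95 against -2.32 for lower exons. These exons were selected by their RNA-seq call, which favours large RNA-seq differences. Smaller RASL-seq sizes at them therefore do not show a difference between the assays. Across the 1538 exons Pearson's r was 0.44 and Spearman's rho 0.43. This describes the exons only, since all points of an assay share its libraries.

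Single exons ranged from close match to mismatch. FGFR2 differed by -2.14 ± 0.33 in RASL-seq, with 95.9% inclusion in WT, 91.3% in R749H and 97.9% in E1126G. EFCAB14 was at 92.7%, 68.7% and 88.4% (-1.79 ± 0.33) and ST7 at 48.4%, 12.4% and 20.7% (-0.89 ± 0.34, adjusted p = 0.0332). All 3 were lower in R749H in both assays, by less in RASL-seq. FANCG differed by 1.36 ± 0.28, at 97.7% in WT, 97.9% in R749H and 94.8% in E1126G. There R749H lay near WT and E1126G below it, whereas in RNA-seq R749H was the mutant that passed against WT. SMARCA4 differed by 2.07 ± 0.24, at far lower levels than in RNA-seq (1.08%, 3.22% and 0.784%). ASXL1 (1.34 ± 0.81, adjusted p = 0.21) and ZNF138 (-0.43 ± 0.62, adjusted p = 0.655) had the RNA-seq sign without passing. ASXL1 inclusion was 5.61%, 20.8% and 9.39% in RASL-seq, also far below RNA-seq. The 2 exons of opposite sign were those of SRSF3, at 37.7% in WT, 67.6% in R749H and 72.2% in E1126G (-0.32 ± 0.33, adjusted p = 0.496), and DDX46 (-0.58 ± 0.63, adjusted p = 0.536). For SRSF3 both assays placed the mutants above WT, and RASL-seq did not show the gap between them. By distance, RASL-seq medians were 0.89 for the 103 exons of at most 1000 nt and 0.50 at 1000 to 2000 nt, against 0.27 to 0.39 from 2000 to 32000 nt. Beyond 32000 nt the median was 0.86 over 281 exons, a rise that RNA-seq (0.02 over 923 exons) did not show.

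**Figure D4:**
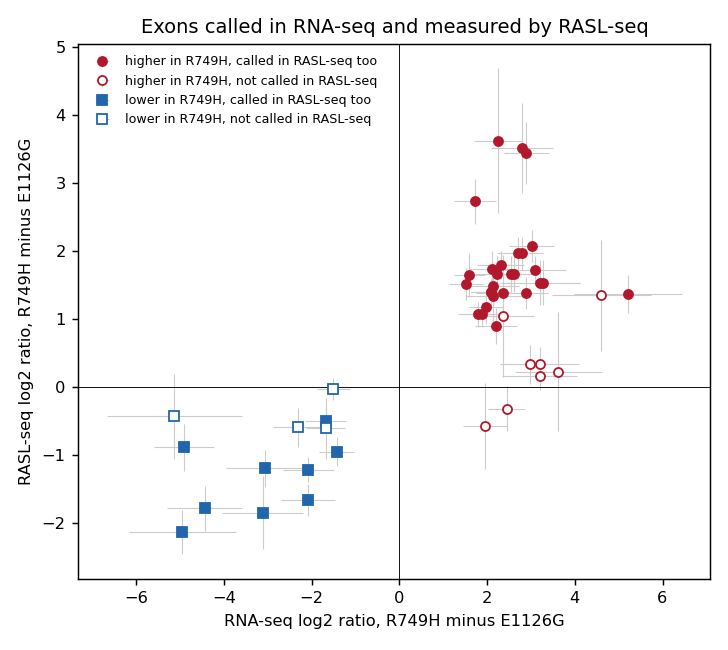
RASL-seq difference (y axis, log2) against RNA-seq difference (x axis, log2), R749H minus E1126G, at the 49 exons called in RNA-seq and measured by RASL-seq; bars are the implied standard errors. Filled points were called in RASL-seq too, and 2 red points lie below 0, SRSF3 and DDX46.

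Intron retention also differed between the mutants. Of 2518 introns tested, 77 were called (3.06%), with more retention in R749H at 52 (2.07%) and less at 25 (0.993%); at an unadjusted p under 0.05 there were 308. The median difference of all introns was 0.10. The intron tables give no gene, and a gene is named only where an exon event on the same strand spans the intron, which held for 29 of the 77. The largest rise was a 616-nt intron in CLMN, an actin-binding membrane protein (chr14:95660257-95660872, - strand), retained at 41.9% in WT, 94.1% in R749H and 48.6% in E1126G (4.08 ± 1.15, adjusted p = 0.0195). A 1491-nt intron in CLK1, an SR kinase (chr2:201724470-201725960, - strand), was at 50.2%, 87.8% and 46.6% (3.05 ± 0.52, adjusted p = 2.86e-06). The 222-nt intron of MRPS18A, a mitochondrial ribosomal protein (chr6:43643009-43643230, - strand), was at 7.38%, 13.1% and 1.31% (3.51 ± 0.82). In CLMN and CLK1 E1126G was within 7 points of WT, while in MRPS18A the mutants lay on either side of it. There R749H did not pass against WT by the deposited p-value after Benjamini-Hochberg (adjusted p = 0.17). Introns with no gene name that rose included chr1:231360161-231361216 (2.60%, 47.0% and 5.46%), chr6:4056670-4057269 (10.2%, 67.9% and 19.4%), chr12:1039053-1039216 (34.8%, 89.3% and 48.7%), chr12:132625566-132625819 (58.0%, 97.8% and 74.5%) and chr16:74486030-74487068 (89.7%, 98.4% and 85.5%).

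The lowest difference among the called introns came from the fast mutant. A 332-nt intron in TSPAN31, a tetraspanin (chr12:58140040-58140371, + strand), was at 12.9% in WT, 17.2% in R749H and 94.4% in E1126G (-6.35 ± 0.60, adjusted p = 1.35e-22). A 99-nt exon inside the same interval stood at 1.85% in R749H and 11.8% in E1126G and did not pass the test (adjusted p = 0.562). The neighbouring gene CDK4 lies on the other strand, and no source used here says whether reads were counted by strand, so the gene behind this value is uncertain. An intron at chr3:49065966-49066190 likewise stood apart in E1126G (9.11%, 9.05% and 34.3%, -2.39 ± 0.39), as did chr1:186310522-186312457 (3.68%, 3.21% and 16.0%). Elsewhere retention was lowest in R749H: at chrX:134703357-134706739 it was 86.0% in WT, 11.5% in R749H and 84.6% in E1126G (-5.40 ± 1.49, adjusted p = 0.0166), and at chr16:1412322-1412452 15.8%, 0.99% and 22.1% (-4.82 ± 1.05). The short introns chr11:67049837-67049905 (11.8%, 1.78% and 17%) and chr19:15226883-15226962 (17.4%, 4.31% and 19.0%) followed the same order.

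Called introns with more retention in R749H tended to be long for this table, and those with less tended to be somewhat shorter than all introns. Median lengths were 459 nt for higher, 198 nt for lower and 226 nt for all introns, and 32 of 52 (61.5%), 6 of 25 (24.0%) and 39.4% of all were longer than 300 nt. Over all introns the median difference was -0.07 from 40 to 100 nt, -0.10 from 100 to 150 nt, 0.08 from 150 to 300 nt, 0.28 from 300 to 600 nt, 0.36 from 600 to 1200 nt and 0.45 beyond 1200 nt, to be read against the 0.10 of all introns. This order of length was the reverse of the order by distance among exons. The calls were 2 higher and 9 lower from 40 to 100 nt, 5 and 2 from 100 to 150 nt, 13 and 8 from 150 to 300 nt, 11 and 3 from 300 to 600 nt, 13 and 0 from 600 to 1200 nt, and 8 and 3 beyond, so they did not follow the medians in every group. As shares of the introns tested, in the same order, calls were 2.05% of 537, 2.15% of 325 and 3.40% of 618. Above 300 nt the shares were 3.00% of 466, 4.33% of 300 and 4.85% of 227.

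**Figure D5:**
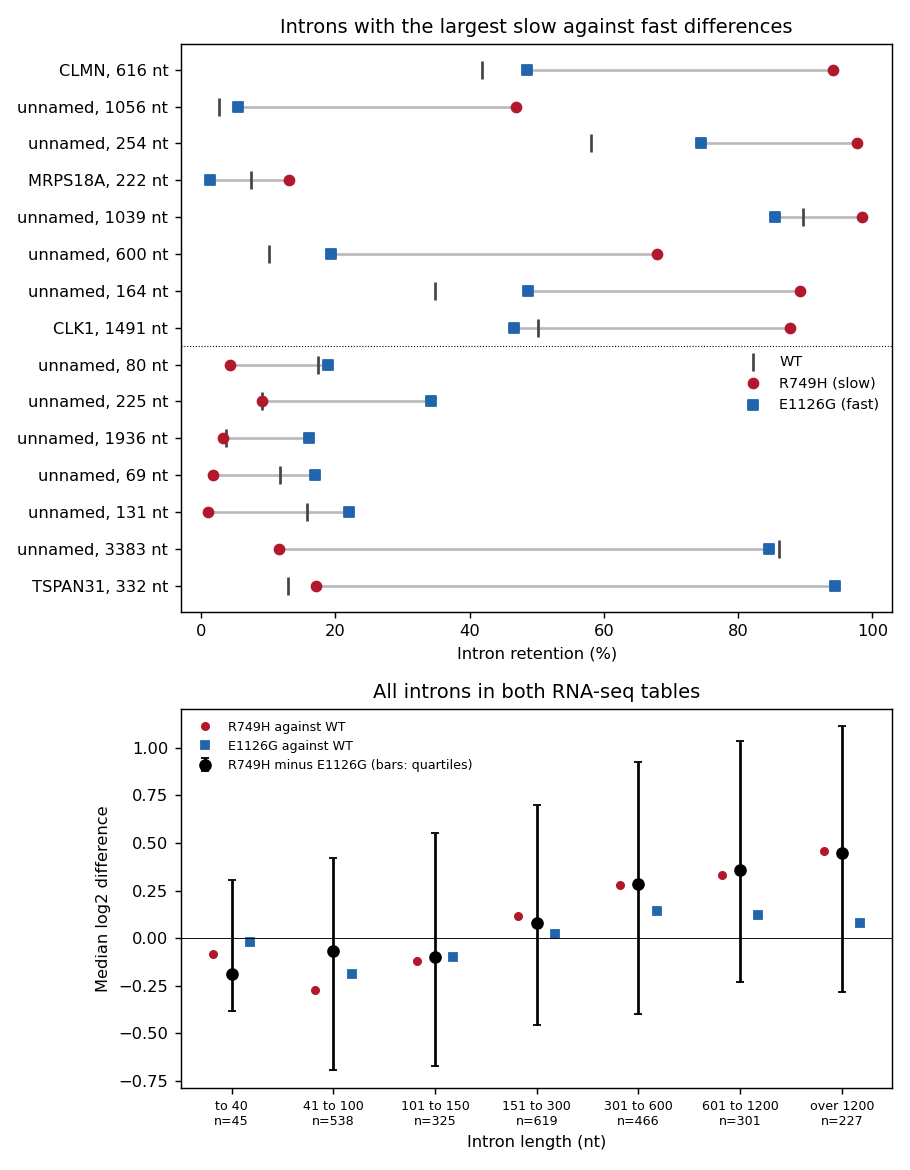
Top: retention (x axis, %) of the 8 introns with the largest rises and 7 of the 8 with the largest falls in R749H against E1126G, labelled with gene (or unnamed) and length, for WT, R749H and E1126G. Bottom: median log2 difference (y axis) by intron length (x axis, nt), with quartile bars for R749H minus E1126G, with medians from -0.19 for the 45 shortest gaps to 0.45 beyond 1200 nt.

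Some retained introns enclose a called skipped exon, so that retention, inclusion and skipping are measured on the same interval. In SRSF7 the 875-nt interval was retained at 38.5% in WT, 71.5% in R749H and 35.3% in E1126G (2.20 ± 0.37, adjusted p = 1.65e-06), and the 449-nt exon inside it (chr2:38976040-38976488, - strand) was included at 25.3%, 66.8% and 33.9% (1.97 ± 0.38). L3MBTL2 (63.5% retention in R749H against 24.1% in E1126G), POFUT2, which adds O-linked fucose (78.2% against 34.9%), and EXOSC9 (25.3% against 9.24%) had the same arrangement. In all 4 genes both readouts were higher in R749H, and the sources do not say whether a read inside the exon counts for both. TRA2A, an SR-like splicing activator, had values in opposite directions: its 280-nt intron (chr7:23561460-23561739) was retained at 86.5% in WT, 78.1% in R749H and 43.2% in E1126G (2.23 ± 0.64), whereas the 3 adjacent exon forms were lower in R749H by 1.59 to 1.82 on the log2 scale and did not pass the test. AKT2 had a called intron and a called adjoining exon in opposite directions. Its 152-nt intron was lower in R749H (-2.0 ± 0.62, adjusted p = 0.0414) and its 129-nt exon higher (2.79 ± 0.70, adjusted p = 0.00892). In DDX11, a DNA helicase, both introns around an 88-nt exon were retained more in R749H (68.6% against 24.3%, and 88.5% against 58.1%), while the exon itself was at 96.2% and 96.1%.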

How the data were processed

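The members, gene lists and tests were chosen with earlier results of these data known. Per the labels' protocols, poly(A)+ RNA-seq (TruSeq v2, random primed, paired 100 bp reads) of 2 libraries per genotype was mapped with TopHat 1.4.1, and per the submitters' processing notes Bowtie 0.12.7, edgeR 3.7.17 and GRCh37 (hg19) were used, with no role given. Only the authors' comparisons were used. Per the file headers, each deposited table gives logIR, logFC and a p-value. LogIR was read here as a natural log, by the authors, of inclusion over exclusion in WT cells. LogFC is the authors' log2 fold change of mutant over WT, and the test behind the deposited p-value is not stated. The authors' tables hold no value or depth per library, so no exact test, interval or count model could be fitted.

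Percentages are ratio/(1 + ratio). The error of each deposited log2 change was its size over the normal quantile of its p-value. The difference of both mutants was tested two-sided by z with both errors summed in squares, adjusted by Benjamini-Hochberg (Python 3.11.15, scipy 1.17.1). A run on simulated data drew changes with these same normal errors, so it could not check the normal reading of the deposited p-values. Adjusted p-values are therefore approximate and rest on the deposited ones. The 37 exons and 3 introns that gave no error were not tested. Symbols were found for 5861 of 5967 gene identifiers. Named exons are the 12 largest and 12 smallest differences (introns 8 and 8) among called events with at least 10 points, 1 per gene and position, and, in each of the 12 gene lists, up to 4 called events by size. Of these, 1 intron is not reported here. EXOSC9, POFUT2, SRSF7, TRA2A and DDX11 introns, further exons of LSM14B and LUC7L3, and the exons set against RASL-seq beyond the named ones, were chosen after their values were seen. The AKT2 intron and exon were chosen in the same way. Alternatives changed the threshold, the treatment of WT noise, a minimum size, centring, the WT range and repeated positions.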

Additional observations from a re-analysis of the deposited data

Results flagged for a closer look

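At 9 exon events and 1 intron each mutant had moved away from the shared WT beyond the threshold, R749H upwards and E1126G downwards, and the difference between the mutants passed its own test as well (adjusted p of the approximate z test). Both mutants are compared with the same WT libraries, so the values against WT are not independent of each other. The smallest exon, 33 nt in TNNT1, the slow skeletal troponin T, was at 33.3% in WT, 50.6% in R749H and 16.5% in E1126G, a log2 difference of 2.38. A 376-nt exon of TIAL1 differed by 2.31. Alternative forms of an exon in the long non-coding RNA HOTAIRM1, of 293 and 269 nt, differed by 2.44 and 2.48. A 195-nt exon of SLC29A1, a nucleoside transporter, was at 35.6%, 61.5% and 12.0% and differed by 3.55. A 177-nt exon listed for both TREX2, a 3′ exonuclease, and HAUS7, an augmin subunit, is 1 exon with a line for each gene, at 32.4%, 59.1% and 18.1%, and differed by 2.71. The exons of APRT, which recycles adenine (134 nt, 2.61), and RABAC1, a Rab-binding membrane protein (102 nt, 4.76), were above 96% in all 3 genotypes, so the differences lie in small shares of skipping: 98.3%, 99.4% and 96.3% inclusion for APRT, and 99.4%, 99.9% and 98.4% for RABAC1. The intron, chr12:121783835-121784698 (GRCh37), was retained at 9.78%, 19.7% and 3.88% and differed by 2.61.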

How the results depend on the processing

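No paired analysis was possible because the deposited tables hold no value per library; for the same reason no library could be left out and depth was not known. The calls rest on errors implied by the deposited p-values, and their number moved with how these were used. The direction of a named event could not change under these alternatives. Only centring altered the difference itself, by the median of all events (0.07 for exons and 0.10 for introns). For exons, 156 higher and 74 lower became 87 and 29 at an adjusted p under 0.01, 232 and 123 under 0.1, and 631 and 379 once the shared WT noise was removed. Size alone (20 points and a log2 difference of 1, no test) gave 560 and 506, 52.5% of them higher, against 67.8% of the calls. With the larger implied error of each pair used for both mutants, an alternative chosen after seeing the data, there were 105 and 39, and 6 of the 24 named exons no longer passed: SLC25A35, MTFR1L, ZNF138, FGFR2, WARS1 and TMCO3. The median distance between flanking exons was 3.26 times as long for lower as for higher exons, 1.93 times by size alone and 2.07 times with the larger errors. For introns, 52 higher and 25 lower became 27 and 7 (79.4% higher) under 0.01, 86 and 34 under 0.1, 185 and 87 without the shared WT noise, 49 and 15 with at least 10 points, 124 and 70 by size alone, and 43 and 16 with the larger errors. Subtracting the median of all events gave 150 and 91 exons (62.2% higher) and 44 and 31 introns (58.7% higher). The cause of these changes was not tested, beyond the fewer events that a stricter rule admits.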

Other observations

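Very short exons were called in both directions. Of the 288 tested exons of at most 27 nt, 6 were called (2.08%), 3 higher and 3 lower in R749H, a share near the 1.74% of all exons, and the median difference at this size was 0.05. An 18-nt exon of MON2, a regulator of endosome to Golgi traffic, was at 88.6% in WT, 88.5% in R749H and 47.1% in E1126G (3.11 ± 0.75, adjusted p = 0.00612), and so departed from WT in the fast mutant. A 21-nt exon of FERMT2, an integrin-binding kindlin, was at 13.8%, 3.57% and 24.6% (-3.14 ± 0.74, adjusted p = 0.00473). These were chosen after their values were seen.

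The smallest adjusted p-values among exons belonged to COPS7B, a subunit of the COP9 signalosome, and METTL26, a gene of the methyltransferase-like family. A 252-nt exon of COPS7B was at 57.2% in WT, 97.0% in R749H and 74.7% in E1126G (3.46 ± 0.46, adjusted p = 4.02e-10). A 163-nt exon of METTL26 was at 68.8%, 90.9% and 56.9% (2.92 ± 0.39, adjusted p = 4.02e-10). A gene of the mitochondrial ribosome and genes of cell division also held called exons: MRPL55 (161 nt, 3.20%, 55.0% and 18.6%) was higher in R749H, and MELK, a mitotic kinase (144 nt, 94.7%, 54.7% and 89.9%), and CDC25C, a phosphatase that starts mitosis (95 nt, 85.2%, 50.6% and 83.9%), were lower. These genes were picked after their values were seen, and no group was tested.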
